A study of Arabidopsis thaliana with 36 samples.

Results

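AST91 (AT1G23090, also named SULTR3;3), SULTR2;2 (AT1G77990) and SERAT2;2 (AT3G13110) are the 3 genes of sulfate transport and assimilation described here, out of 446 genes listed in any of 12 tables that compare Arabidopsis lines after induction. The genes were chosen by locus identifier, and every table row with one of these identifiers was taken. RNA-Seq was done on shoot apical meristems (SAMs) of 3 lines at 4, 8, 12 and 16 h after 1 application of 10 µM dexamethasone (Dex) in 0.015% Silwet L-77, with 3 libraries for each line and time and 36 in all. The pAtUBQ10>>miR165a line carries the activator GR-LhG4 under the UBIQUITIN 10 promoter together with miR165a behind 6 copies of the LhG4 operator, on the same T-DNA. The pAtUBQ10::GR-LhG4 line carries the activator alone, and ap1cal carries neither transgene. All 3 lines have the ap1 and cal mutations, which replace flowers with masses of meristems, and all 3 received Dex, so no library shows a line without it. The transgenic plants were of the T2 generation, and both T-DNAs carry a sulfadiazine resistance marker that ap1cal lacks. Each replicate pooled 4 to 5 SAMs. In bulk tissue of this kind, more cells that express a gene and more RNA per cell cannot be told apart.

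Plants take up sulfate through SULTR transporters and activate it with ATP sulfurylase, which makes adenosine phosphosulfate (APS). APS reductase (APR) and sulfite reductase reduce APS to sulfide, which is joined to O-acetylserine to make cysteine. AST91 belongs to group 3 of the sulfate transporters, a group that has been linked to the entry of sulfate into chloroplasts. SULTR2;2 is a low-affinity transporter known from vascular tissue. SERAT2;2 is the mitochondrial serine acetyltransferase, the enzyme that makes O-acetylserine, known as its main source in leaves. In sulfur-starved Arabidopsis, many genes of the pathway are known to rise together.

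A gene was listed by the study when its adjusted p in the DESeq2 Wald test was at most 0.05 and its absolute log2 fold change at least 1. In the deposited tables the largest adjusted p was 4.78e-06, so a gene that is not listed most likely missed the fold and not the p. The values are comparisons between lines, each with its standard error (SE). The study gives a range of read numbers over its samples and reports that replicates clustered closely. No values per library are used here, so the depth of each library and the replicate spread of each gene are unknown. Markers of the SAM could not be checked for the same reason. The miR165a gene itself checked the label of the pAtUBQ10>>miR165a line. It cannot tell pAtUBQ10::GR-LhG4 from ap1cal, or the times from each other. Its log2 fold change in the pAtUBQ10>>miR165a line over pAtUBQ10::GR-LhG4 was 3.28, 4.27, 3.83 and 3.59 at 4, 8, 12 and 16 h, and it was listed at no time in pAtUBQ10::GR-LhG4 over ap1cal. The mean normalized count of each of the 446 genes was the same number in every table that lists it. It is read as a mean over the libraries of all lines and times, and the folds as those of 1 joint model.

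All 3 genes lie on the minus strand. AST91 spans chr1:8184925-8189234 in TAIR10 and has 9 exon blocks. SULTR2;2 spans chr1:29317767-29323352 and has 12, and SERAT2;2 spans chr3:4214399-4216302 and has 1 exon. No stretch of 50 bases from their exons occurs elsewhere in the TAIR10.1 genome, so reads of that length from these genes have no identical copy at another locus. Overlap with other annotated genes is a different matter. SERAT2;2 shares 132 bases at its 3′ end with ABCC7 (AT3G13100), an ABC transporter gene on the same strand, and SULTR2;2 shares 942 bases with the antisense transcript AT1G77992. The strand setting of the counting is not given in the sources used here, so the counts of this transporter gene are uncertain by what that transcript adds. AT1G77992 was listed in 0 tables. ABCC7 was listed in 1, the pAtUBQ10>>miR165a line over ap1cal at 16 h, with a log2 fold change of 1.10 (SE 0.17) at a mean normalized count of 62.5.

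The stretch just before the annotated start of AST91 is printed because AST91 carried the largest folds of the 3 genes and the activator binds DNA. The DNA-binding part of LhG4 comes from the lac repressor, whose operator holds the half-site TGTGAGC. The 250 bases before the AST91 start lie at chr1:8189235-8189484 and read, 5′ to 3′ on the minus strand,
AST91 upstream: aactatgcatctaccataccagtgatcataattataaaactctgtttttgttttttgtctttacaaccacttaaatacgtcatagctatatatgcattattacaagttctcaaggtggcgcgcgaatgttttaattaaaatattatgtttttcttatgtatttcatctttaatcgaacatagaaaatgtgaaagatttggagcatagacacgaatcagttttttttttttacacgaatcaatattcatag
Of these bases 71.6% were A or T, against a median of 68.8% over the same window of 27443 protein-coding genes. The letters TGTGAGC were on neither strand of the window from 250 bases before to 50 bases after the start in any of the 3 genes. Of the 104 protein-coding genes listed as higher in pAtUBQ10::GR-LhG4 over ap1cal 1 held them, which is 0.962%, against 1.53% of all 27443 windows. The core GAGAC, known from a sulfur-responsive promoter element of a root sulfate transporter gene, was in the window of 1 of the 3, SERAT2;2, and in those of 32.8% of all genes. There it lies on the opposite strand, from base 4 of the annotated transcript, within chr3:4216283-4216311. The letters in capitals mark its reverse complement.
SERAT2;2 start: ttttggcacccaGTCTCtccactcctagt
A match in such a window is a string of letters and not a bound site, and its absence says nothing of the factor.

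Of the 3 genes, 2 were listed as higher in pAtUBQ10>>miR165a over ap1cal at 4 h, beside 0.345% of the 19714 genes tested. At 8 h 3 of 3 were listed as higher (0.507% of genes tested), at 12 h 2 (0.654%) and at 16 h 3 (0.867%). In pAtUBQ10::GR-LhG4 over ap1cal, 2 were listed as higher at 4 h beside 0.294% of the 18680 genes tested, 2 at 8 h (0.219%), 3 at 12 h (0.450%) and 3 at 16 h (0.337%). In pAtUBQ10>>miR165a over pAtUBQ10::GR-LhG4, 0 of 3 were listed as higher at 4 h beside 0.0457% of genes, 2 at 8 h (0.284%), 1 at 12 h (0.274%) and 1 at 16 h (0.222%). Of the 36 combinations of gene, comparison and time, 24 were listed, and 0 of these as lower. Over all genes 1, 1, 6 and 0 were listed as lower in pAtUBQ10::GR-LhG4 over ap1cal at 4, 8, 12 and 16 h, so that direction was rare there. The numbers were 21 to 63 in pAtUBQ10>>miR165a over ap1cal and 29 to 68 between the transgenic lines. The 3 genes were picked for description with these tables known, so the counts describe them and do not test them.

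**Figure D1:**
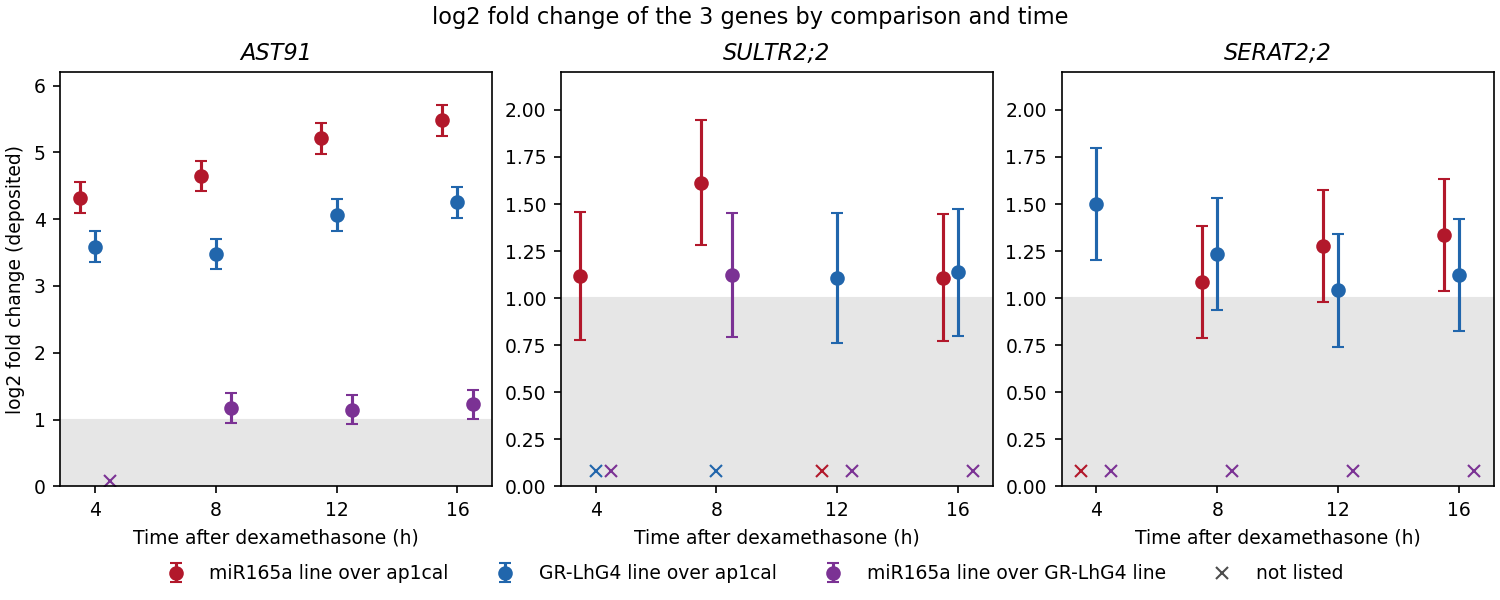
Deposited log2 fold change of AST91, SULTR2;2 and SERAT2;2 (y axis, with its own range for AST91) against hours after dexamethasone (x axis) in the 3 line comparisons. Bars are 95% intervals from the deposited standard errors, the grey band is the range under the fold threshold of 1, and crosses near 0 mark comparisons that are not listed and have no value. AST91 stands between 3.48 and 5.48 against ap1cal in both transgenic lines, while the other genes stand between 1.04 and 1.61.

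AST91 was up-regulated in both transgenic lines at every time. Over ap1cal, its log2 fold change in the pAtUBQ10>>miR165a line was 4.32, 4.65, 5.21 and 5.48 at 4, 8, 12 and 16 h, with SEs of 0.116 to 0.119. On the linear scale these are 20.0-, 25.1-, 37.0- and 44.7-fold. In pAtUBQ10::GR-LhG4 over ap1cal the log2 fold change was 3.59, 3.48, 4.06 and 4.25 at the same times, with SEs of 0.117 to 0.120, or 12.0-, 11.1-, 16.7- and 19.1-fold. The weakest of these 8 calls had an adjusted p of 2.24e-191 in the deposited DESeq2 Wald test. Both sets of folds share the ap1cal libraries, so they are not independent of each other.

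By size of fold AST91 led the genes listed as higher in pAtUBQ10::GR-LhG4 over ap1cal at all 4 times, out of 55, 41, 84 and 63 genes. The next gene was 0.88, 0.89, 1.45 and 1.30 lower on the log2 scale at 4, 8, 12 and 16 h. AST91 was in place 2 in pAtUBQ10>>miR165a over ap1cal at 4, 8 and 12 h, below the retroposon-derived pseudogene SADHU3-2 (AT3G42658), and in place 1 at 16 h among 171 genes. At 16 h the log2 fold change of SADHU3-2 was 5.38, only 0.10 below that of AST91, which is within their error. Among protein-coding genes AST91 was first at every time in both comparisons. AST91 had a mean normalized count of 5165 over all libraries, the fifth highest of the 446 listed genes, whose median was 107. This mean includes both transgenic lines, in which AST91 was raised, so it does not give its level in ap1cal.

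**Figure D2:**
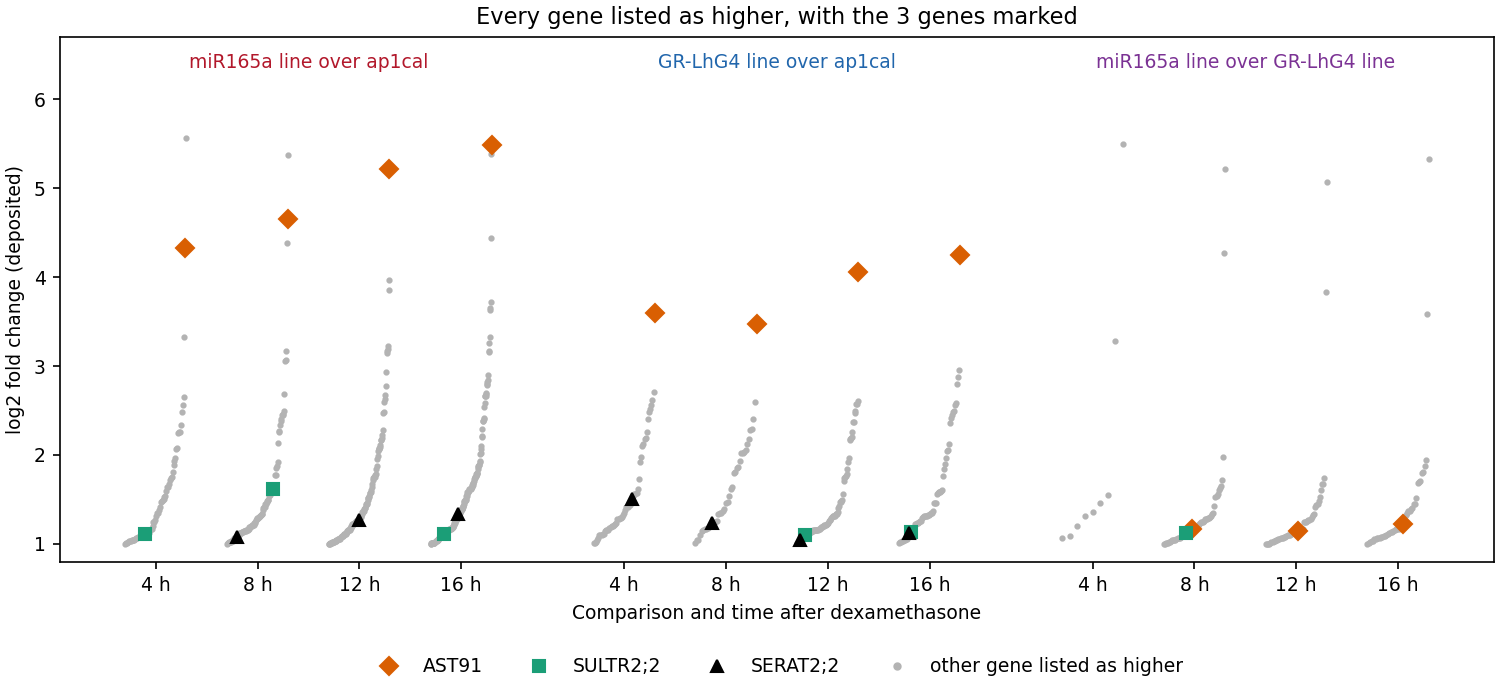
Deposited log2 fold change (y axis) of every gene listed as higher in each of the 12 comparisons (x axis, by lines and hours after dexamethasone), ordered by fold within a comparison. AST91 is the top point at each time in GR-LhG4 over ap1cal and lies near the middle of the listed genes in miR165a over GR-LhG4, where its log2 fold change is 1.15 to 1.23.

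The pAtUBQ10>>miR165a line over pAtUBQ10::GR-LhG4 compares 2 lines that both carry the activator, and gives the part of the rise that goes with the miR165a cassette. AST91 was listed as higher here at 8, 12 and 16 h, at log2 fold changes of 1.17, 1.15 and 1.23 (SE 0.11 at each), with adjusted p of 1.67e-22, 1.39e-21 and 6.10e-25 (DESeq2). These are 2.26-, 2.22- and 2.34-fold. By fold AST91 was in place 32 of 59, 26 of 54 and 20 of 46 genes listed as higher, far from the top. It was not listed at 4 h. The difference of its deposited folds over ap1cal gives 0.73 at that time, with an SE of at most 0.17. At that SE the 95% interval is 0.40 to 1.06, which is the widest it can be. The deposited SE of this comparison was 0.11 at the later times, so the true interval may be narrower. Whether it holds the threshold of 1 is thus not settled. In 17 pairs of gene and time with all 3 comparisons listed, the folds added up exactly, apart from rounding in the computer, so values calculated in this way are those of the study's own model.

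Split in this way, the total log2 rise of AST91 in pAtUBQ10>>miR165a consisted mostly of the activator part. The fold in pAtUBQ10::GR-LhG4 over ap1cal was 83.0%, 74.8%, 78.0% and 77.6% of the total at 4, 8, 12 and 16 h. On the linear scale the same part was smaller, since folds multiply. The linear rise in pAtUBQ10::GR-LhG4 was 58.1%, 42.0%, 43.6% and 41.4% of that in pAtUBQ10>>miR165a at the 4 times. The activator part holds every difference between pAtUBQ10::GR-LhG4 and ap1cal, and GR-LhG4 itself, the T-DNA, its marker and its insertion site cannot be told apart. Likewise the miR165a part holds any other difference between the 2 separately transformed lines, such as insertion sites, T-DNA copies or the amount of GR-LhG4. None of these was tested. The protein-coding genes on either side of AST91 are PIN7 (AT1G23080), an auxin efflux carrier gene that starts 1274 bases away, and AT1G23100, which starts 6541 bases away. Both were listed in 0 of the 12 tables.

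If the level in ap1cal were the same at all 4 times and the mean normalized count covered the 36 libraries evenly, the folds and the mean of AST91 would correspond to about 10356 counts in pAtUBQ10>>miR165a, 4813 in pAtUBQ10::GR-LhG4 and 327 in ap1cal, averaged over the times. These are levels worked out from these assumptions, with the deposited folds taken as they are, and not measured ones.

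**Figure D3:**
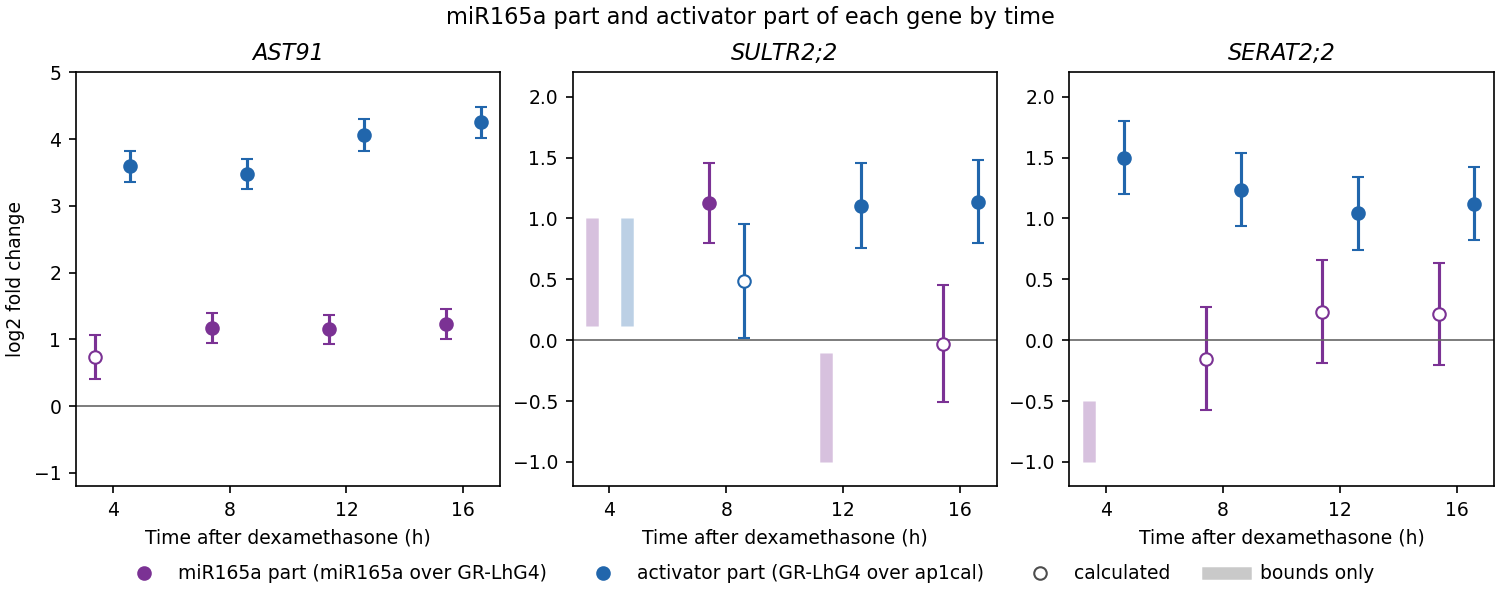
The miR165a part (fold of miR165a over GR-LhG4) and the activator part (fold of GR-LhG4 over ap1cal) of each gene, as log2 fold change (y axis) against hours after dexamethasone (x axis). Filled points are deposited values and open points are calculated ones, both with 95% intervals. Shaded bars are the bounds that the threshold sets on the estimates where a single comparison was listed, without its SE. The activator part exceeds the miR165a part of AST91 at every time. In the middle panel the miR165a part is 1.12 at 8 h and -0.03 at 16 h, and in the right panel its calculated values lie between -0.15 and 0.23.

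The AST91 folds over ap1cal grew with time in both transgenic lines. Differences between times were tested with a two-sided Wald test over every gene listed at both times, adjusted after Benjamini and Hochberg over all such tests of a comparison. For AST91 4 of 6 pairs of times were called in pAtUBQ10>>miR165a over ap1cal, each higher at the later time, beside 18.0% of 532 tests over all genes. The fold at 16 h was 1.16 higher than at 4 h on the log2 scale (SE 0.17, adjusted p = 2.97e-10), and 0.83 higher than at 8 h (SE 0.17, adjusted p = 1.33e-05). In pAtUBQ10::GR-LhG4 over ap1cal 4 of 6 pairs were again called as higher later, beside 7.48% of 254 tests. There the fold at 16 h was 0.66 higher than at 4 h (SE 0.17, adjusted p = 0.00141) and 0.78 higher than at 8 h (SE 0.17, adjusted p = 0.000124). The steps between 4 and 8 h and between 12 and 16 h were not called in either line. With SEs 1.5 times as large, 3 pairs were still called in the first comparison and 0 in the second. Since both lines were set against the same ap1cal libraries, a growing level in the lines and a falling level in ap1cal cannot be told apart.

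The miR165a part of AST91 showed no such growth between 8 and 16 h. In pAtUBQ10>>miR165a over pAtUBQ10::GR-LhG4, 0 of 3 pairs of times were called for AST91 by the Wald test, also at an unadjusted p of at most 0.05. Over all genes 2 of 185 tests were called, 1 of them as higher later (0.541%). With calls this rare, 0 of 3 is not particular to AST91, and its change is limited by the interval that follows. The difference between 16 and 8 h was 0.05 on the log2 scale, with a 95% interval of -0.26 to 0.37. A change of the size seen over ap1cal in either line in those hours lies outside this interval. The calculated 4 h value stood 0.44 below that at 8 h, 0.42 below that at 12 h and 0.50 below that at 16 h. For 8 h the SE was at most 0.20, and the 95% interval of the difference at that SE, its widest, was 0.05 to 0.84. These differences rest on a gene that is not listed at 4 h, and were not part of the adjusted tests.

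**Figure D4:**
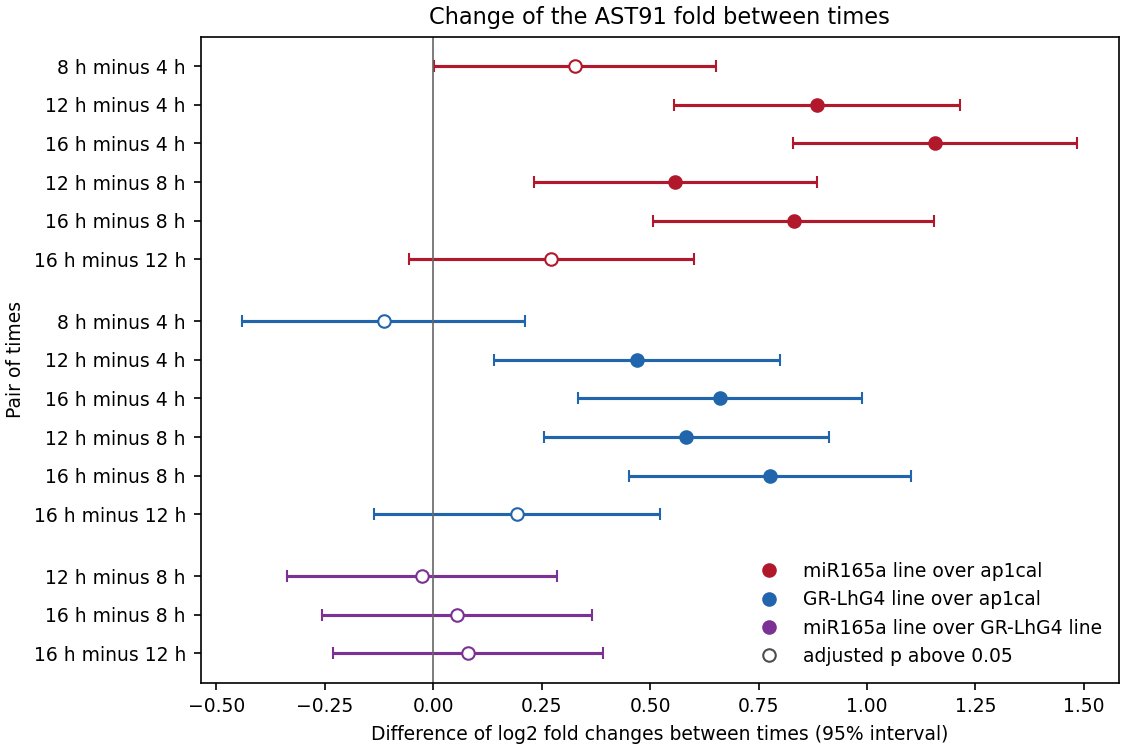
Difference of the AST91 log2 fold change between 2 times (x axis, later minus earlier, with 95% intervals) for each pair of times (y axis) in the 3 comparisons. Filled points passed an adjusted p of 0.05. The pairs that set 12 or 16 h against 4 or 8 h are positive in both comparisons with ap1cal, from 0.47 to 1.16, and the 3 pairs in miR165a over GR-LhG4 lie between -0.03 and 0.08.

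A set of 29 genes was listed in all 8 comparisons with ap1cal, and AST91 is 1 of them. The miR165a part of AST91 was the highest of the 29 at 4 h, and in place 2, 4 and 4 at the later times. Its values of 0.73, 1.17, 1.15 and 1.23 on the log2 scale stood against medians over the 29 genes of -0.11, 0.13, 0.49 and 0.41 at 4, 8, 12 and 16 h. The activator share of AST91 was below the median of the 29 genes at each time, by 24.6 percentage points at 4 h and by 2.4 at 16 h. Those medians were 107.6%, 90.4%, 79.5% and 80.0% of the total log2 fold at the same times. Being listed 8 times selects for an activator part, and these values are a description. GA3OX1 (AT1G15550), a gene of gibberellin synthesis, was the only other gene listed in the same 11 tables as AST91, and no gene was listed in more.

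The genes with folds nearest to those of AST91 were ranked among the other 28 of the set by the root mean square difference over the 8 log2 folds against ap1cal. AT3G44220 was nearest at 1.54, followed by AT5G26290 at 1.78 and STP1 (AT1G11260), a hexose transporter gene, at 1.81. AT3G44220 had log2 fold changes of 2.25, 3.16, 3.86 and 4.44 in pAtUBQ10>>miR165a over ap1cal and of 2.12, 2.18, 2.37 and 2.56 in pAtUBQ10::GR-LhG4 over ap1cal. It was listed over pAtUBQ10::GR-LhG4 at 12 h with 1.48 and at 16 h with 1.88. STP1 reached 3.26 in pAtUBQ10>>miR165a and 2.45 in pAtUBQ10::GR-LhG4 over ap1cal at 16 h, and was not listed between the transgenic lines.

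SULTR2;2 moved less, and in fewer comparisons. It was listed in 6 of 12 tables, as higher each time, at a mean normalized count of 52.9, which is place 316 of the 446 genes. Its log2 fold change in pAtUBQ10>>miR165a over ap1cal was 1.12 at 4 h, 1.61 at 8 h and 1.11 at 16 h (SE 0.17 at each), with adjusted p of 1.74e-08, 4.69e-19 and 7.12e-09 in the DESeq2 test. It was not listed at 12 h. In pAtUBQ10::GR-LhG4 over ap1cal it was listed at 12 h with 1.11 (SE 0.18, adjusted p = 5.36e-08) and at 16 h with 1.14 (SE 0.17, adjusted p = 1.03e-08). Between the transgenic lines it was listed at 8 h alone, at 1.12 (SE 0.17, adjusted p = 3.82e-09), which is 2.18-fold.

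The parts of this transporter gene are given for each time, and their difference between 8 and 16 h was not tested. At 8 h the activator part, calculated from the other comparisons, was 0.49 (SE at most 0.24, 95% interval 0.02 to 0.96) and the miR165a part 1.12. At 16 h the activator part was 1.14 and the calculated miR165a part -0.03 (SE at most 0.24, 95% interval -0.51 to 0.45). At 12 h the threshold bounds the miR165a part between -1 and -0.11, if the fold alone kept the gene from the table. At 4 h both parts lie between 0.12 and 1 on the same condition. These bounds are for the estimates and leave out the SE of the listed fold (0.18 at 12 h), so they are not 95% intervals. Of the 6 listed folds of SULTR2;2, 5 were within 1 SE of the threshold. The times at which it enters and leaves a table are thus within its error. Of the 4 pairs of times that could be tested, 0 were called by the Wald test after adjustment. Over all genes, 108 of 532 tests were called in pAtUBQ10>>miR165a over ap1cal and 29 of 254 in pAtUBQ10::GR-LhG4 over ap1cal, so 0 of 4 is not particular to this gene. At an unadjusted p of at most 0.05, 2 of the 4 pairs passed, 8 h over 4 h by 0.50 and 16 h over 8 h by -0.50 in pAtUBQ10>>miR165a over ap1cal (adjusted p = 0.134 and 0.127).

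SERAT2;2 rose in pAtUBQ10::GR-LhG4 over ap1cal at every time. Its log2 fold change was 1.5, 1.24, 1.04 and 1.12 at 4, 8, 12 and 16 h (SE 0.15 at each), or 2.83-, 2.35-, 2.06- and 2.17-fold, with the largest adjusted p at 1.75e-09 (DESeq2). It was listed in pAtUBQ10>>miR165a over ap1cal at 8, 12 and 16 h with 1.08, 1.27 and 1.34 (SE 0.15 at each), or 2.12-, 2.42- and 2.52-fold. Its mean normalized count of 1955 was in place 23 of the 446 genes. Between the transgenic lines it was listed in 0 of 4 tables, and the tables hold no p of genes that are not listed.

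For this acetyltransferase gene the calculated miR165a part was -0.15 at 8 h, 0.23 at 12 h and 0.21 at 16 h, with an SE of at most 0.22 at each. At these upper limits of the SE the 95% intervals were -0.57 to 0.27, -0.19 to 0.66 and -0.21 to 0.64. A miR165a part of 1 or more, in either direction, lies outside all 3. The value 0 lies inside all 3, which a smaller SE could change. At 4 h the threshold bounds the estimate of the miR165a part between -1 and -0.50, with the same condition as above. These bounds leave out the SE of the listed 4 h fold, 0.15, so they are not a 95% interval. At that time the gene had its highest activator fold and no listed rise in pAtUBQ10>>miR165a. Of its 7 listed folds 3 were within 1 SE of the threshold and 5 within 2. Its differences between times were called in 0 of 9 pairs by the Wald test. Over all genes, 108 of 532 tests were called in pAtUBQ10>>miR165a over ap1cal and 29 of 254 in pAtUBQ10::GR-LhG4 over ap1cal. Beside these shares, 0 of 9 is too few tests to show that the gene was stable. At an unadjusted p of at most 0.05, 1 pair passed, 12 h under 4 h by -0.46 in pAtUBQ10::GR-LhG4 over ap1cal (adjusted p = 0.160).

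The other 52 genes of a list of 55 for sulfate uptake, assimilation and the response to sulfur starvation were looked up in the same tables, and 4 were listed anywhere. Over all genes 446 were listed in some table, which is 2.15% of the 20742 genes in the tables with most genes tested and at most that of all genes tested in any. Of these 52, 2 in pAtUBQ10>>miR165a over ap1cal were listed as higher at 4 h, 2 at 8 h and 0 at 12 and 16 h. In pAtUBQ10::GR-LhG4 over ap1cal 0 of 52 were listed at any time. Over pAtUBQ10::GR-LhG4, 1 of 52 was listed as higher, at 8 h. None was listed as lower in any table, and the numbers of all genes listed as lower are those given above. The shares of all genes listed as higher are those given above for each table, and with counts this small nothing is read from the differences. A gene of the list may be missing because it was unchanged, changed by less than the fold threshold or was too low to test.

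APR2 (AT1G62180), known as the main APS reductase of Arabidopsis, was the gene of the remaining 52 with most calls. Its log2 fold change in pAtUBQ10>>miR165a over ap1cal was 1.10 (SE 0.17) at 4 h and 1.20 (SE 0.16) at 8 h, with adjusted p of 4.74e-09 and 3.75e-11 (DESeq2). APR3 (AT4G21990), another APS reductase gene, was listed at 8 h in that comparison with 1.09 (SE 0.18). SULTR4;2 (AT3G12520), which encodes a transporter that releases sulfate from the vacuole, was listed there at 4 h with 1.01 (SE 0.17). APS4 (AT5G43780), an ATP sulfurylase gene, was listed between the transgenic lines at 8 h with 1.07 (SE 0.15, adjusted p = 4.21e-10). The fold of APR2 at 8 h lies 1.24 SE above the threshold, and the others lie within 1 SE of it. APR2, APR3 and SULTR4;2 were listed in neither of the other comparisons, so their activator and miR165a parts are not separated. If the fold alone kept them out, both parts are at most 1. Leaving out SEs, both are then at least 0.10 and 0.20 for APR2 at 4 and 8 h, 0.09 for APR3 and 0.01 for SULTR4;2.

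By role, and beside the same 2.15%, 3 of 12 sulfate transporter genes were listed in some table, including both members, with 1 of 4 ATP sulfurylase genes, 2 of 3 APS reductase genes and 1 of 5 serine acetyltransferase genes, the one described above. The sulfite reductase gene, 8 genes of the O-acetylserine(thiol)lyase family that make cysteine, 4 APS kinase genes and 2 genes of glutathione synthesis were listed in 0 tables. The same held for 10 regulators and markers of sulfur starvation and for 6 precursor genes of miR395, the miRNA that targets ATP sulfurylase transcripts in sulfur-starved plants. The roles hold too few genes for these counts, the zeros among them, to be read against that share. SULTR1;2 (AT1G78000), the root uptake transporter gene that starts 4162 bases from AT1G77990, was listed in 0 tables, as was AGL66 (AT1G77980), a MADS-box gene 580 bases away on the other side. AT3G13120, 3007 bases from AT3G13110, was not listed either.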

How the data were processed

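Stranded mRNA libraries were made of the 36 samples. For the authors' tables, read quality was assessed in FastQC, adapters and poor bases were removed by cutadapt, TopHat mapped the reads to TAIR10, HTSeq gave counts per gene from exons, and DESeq2 tested each pair of lines. Versions are not given in the sources used here. The deposited signal value is the authors' mean of normalized counts, the deposited log2 fold change and its SE come from their model, the deposited score is the Wald statistic, and the deposited p-value has an adjusted form. No model was fitted again. The SE reached at most 0.183, also for genes with few counts (0.176 for those with a mean under 10), so folds of low genes may be drawn toward 0.

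The number of genes tested came from the ratio of adjusted to raw p, which is that number divided by the rank. At least 89.2% of genes in each table gave a whole rank within 0.001. A comparison that was not listed was calculated from the other 2, and its SE is an upper limit. Wald tests between times use the deposited SEs. Promoter windows and positions came from RefSeq TAIR10.1, and all 446 genes matched it. The text names the 3 genes, the listed genes of the pathway list, the 3 nearest genes and the neighbours. SADHU3-2 and GA3OX1 were named after their values were seen. The members and lists were chosen with earlier results of these data known. Alternatives were a stricter p, fold or count, the linear scale, leaving out times, other adjustments and other windows. Python 3.11.15, pandas 2.3.3 and scipy 1.17.1 were used.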

Additional observations from a re-analysis of the deposited data

Results flagged for a closer look

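The fold of AST91 over ap1cal differed between times by the test of the difference itself. In pAtUBQ10>>miR165a over ap1cal the log2 fold change was higher at 12 h than at 4 h by 0.88 and than at 8 h by 0.56, and at 16 h higher by 1.16 and 0.83. In pAtUBQ10::GR-LhG4 over ap1cal it was higher at 12 h than at 4 h by 0.47 and than at 8 h by 0.58, and at 16 h higher by 0.66 and 0.78. The adjusted p of these 8 differences lay between 2.97e-10 and 0.0471.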

How the results depend on the processing

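No paired analysis was possible because the tables used here hold comparisons and no values per library, and leaving out replicates, other tools and other normalizations could not be run for the same reason. With a log2 fold of at least 1.5 the 24 listed combinations of gene, comparison and time became 9. These were 5 in pAtUBQ10>>miR165a over ap1cal, 4 in pAtUBQ10::GR-LhG4 over ap1cal and 0 between the transgenic lines, and SERAT2;2 was then listed in 0 tables. Under that fold 0 of the 52 other pathway genes were listed, and 1 with an adjusted p of at most 1e-10. At that p AST91 was in 11 tables, SERAT2;2 in 5 and SULTR2;2 in 1. The activator share of AST91 on the linear scale was 58.1%, 42.0%, 43.6% and 41.4% at 4, 8, 12 and 16 h. With SEs 1.5 times as large, 0 pairs of times were called for AST91 in pAtUBQ10::GR-LhG4 over ap1cal. Without 8 h the median miR165a part of SULTR2;2 was -0.03, against 0.55 with it. In a window of 250 bases before the start alone, GAGAC was in 0 of the 3 genes. Of 76 alternative values 21 moved by more than 1.5 times (counts) or by more than the SD over times or the SE (parts and shares), or changed place (ranks), and 55 did not. Those 55 include the change of sign for SULTR2;2 just given, a median miR165a part of SERAT2;2 of 0.03 without 12 h, against 0.21 with it, and 17 of the 24 listed combinations at an adjusted p of at most 1e-10.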
